A study of Mus musculus with 33 samples.

Results

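The net change of gene expression along the CD1530 trajectory was measured by setting the 3 D4 CD1530 libraries against the 3 libraries of the paraxial mesoderm (PM, D0) from which the trajectory starts. These are 6 of the 33 libraries of the series, chosen by their labels alone, and all 17120 genes of the count table were compared. The cells were mouse embryonic stem cells (mESCs) from blastocysts that carried ScxGFP, a reporter of the tendon transcription factor Scx. The PM cultures were grown in serum-free medium with LDN-193189, a BMP inhibitor, and then also with CHIR, a Wnt agonist. The PM libraries are labelled as embryoid bodies and the D4 libraries as monolayer, but the methods place embryoid bodies in the first step only and elsewhere describe the PM stage as 2D culture, so whether the culture format differed is not settled by the sources used here. The study's methods also describe the PM stage with AGN 193109 or all-trans retinoic acid added, and which of these media the sequenced PM had received was not given in the sources used here. The D4 CD1530 libraries came from the same starting cells after 4 days as a monolayer with TGFβ1, SAG (an agonist of Smoothened, the hedgehog signal transducer), FGF2 and CD1530, which activates the gamma form of the retinoic acid receptor (RARγ). For D4 AGN, given below only side by side, the methods name the same medium with AGN 193109, an inverse agonist of retinoic acid receptors, in place of CD1530. The methods list neither LDN-193189 nor CHIR in the induction medium that followed PM. Between PM and D4 CD1530 the time, the growth factors, these agents and the retinoid changed together. Their parts in any difference cannot be told apart. The methods give 3 biological replicates per group, and nothing in the sources ties a replicate number to an mESC line.

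Paraxial mesoderm is the embryonic tissue beside the neural tube that is cut into somites, whose ventral part, the sclerotome, gives rise to cartilage of the axial skeleton and, at its edge, to axial tendon. Tendon cells are fibroblasts that express Scx and Mkx, secrete type I collagen and the small leucine-rich proteoglycans that control fibril growth, and crosslink the fibrils with lysyl oxidases. Retinoic acid receptors are ligand-dependent transcription factors that bind direct repeats of a short sequence next to their target genes, many of which encode enzymes and binding proteins of the retinoid pathway itself.

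The 6 compared libraries held between 18372626 and 21259393 counts assigned to genes, and with the D4 AGN and intermediate CD1530 libraries the range was 17116084 to 22775275. Levels are given as CPM, the counts of a gene relative to the TMM-scaled total of its library, as the mean ± SD of 3 libraries, and differences as log2 fold changes of D4 CD1530 over PM with their standard error (SE). Genes passed, and are said to rise or fall, at an adjusted p under 0.05 in edgeR's quasi-likelihood test. Within PM, D4 CD1530 and D4 AGN, replicates correlated at 0.997 to 0.998 across genes, and no 2 replicates of these groups were identical. By this test 14237 genes (83.2%) differed, 7408 (43.3%) higher and 6829 (39.9%) lower in D4 CD1530, so a call alone says little of any gene and sizes are given throughout. Which direction held more genes depended on the scaling, with 6828 higher and 7498 lower when scaled by library size only, and 7054 higher and 7110 lower when the 6 libraries were fitted alone. In a test for a change beyond 2-fold, 5669 genes (33.1%) passed, 3594 (21%) higher and 2075 (12.1%) lower. Over all genes the median of the log2 fold changes was 0.04, and the quartiles ran from -0.71 to 0.99. Large gains outnumbered large losses: among called genes, 545 had a log2 fold change of at least 4 and 171 one of -4 or below. In bulk libraries a change in the number of cells of a type and a change in RNA per cell cannot be told apart, and this holds for every result below.

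The gene with the largest fold gain was Ogn, which encodes osteoglycin, a small leucine-rich proteoglycan of connective tissue. It stood at 0.048, 0.142 and 0.054 CPM in PM and at 222, 216 and 219 CPM in D4 CD1530, which is at least 1471-fold higher when PM is set to the counting floor of 3 counts per library. The other leading gains by fold were Stra8 (log2 fold change 10.34 ± 0.13, SE), Mgp (10.27 ± 0.11), Rarb, Fibin (9.58 ± 0.12), Actg2, Fmod (9.46 ± 0.12), Eln (9.41 ± 0.08), Col8a1 (8.78 ± 0.07), Cyp26a1 (8.72 ± 0.10), Adamts18 (8.46 ± 0.20) and Cilp. Against the same floor, Rarb was at least 377-fold, Actg2 at least 512-fold and Cilp at least 275-fold higher. Among them, Mgp, Fmod, Eln (elastin), Col8a1 and Cilp encode secreted matrix proteins, and Stra8, Rarb and Cyp26a1 are known to respond to retinoic acid.

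By CPM, which is not scaled to gene length, the largest gain was that of Igfbp5, a secreted binding protein of insulin-like growth factors, from 44.8, 35.1 and 33.5 CPM in PM to 11014, 10639 and 11155 CPM in D4 CD1530 (log2 fold change 8.17 ± 0.12, adjusted p = 1.1e-26). After it came Col1a1, Fn1, Col1a2, Col3a1 and Col4a1, which encode fibronectin and chains of the main fibrillar and basement membrane collagens. Fn1, for example, went from 1621 ± 156 to 6358 ± 156 CPM. The largest losses in CPM were in translation and chaperone genes that are used by every cell: Eef1a1 (11578 ± 258 to 6291 ± 63.8 CPM), Hsp90ab1, Eef2, Rpl4, the glycolytic enzyme gene Pkm and Hsp90aa1, with log2 fold changes between -1.80 for Hsp90aa1 and -0.60 for Pkm.

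The leading loss by fold was that of the channel gene Trpm1. It fell at least 245-fold, from 41.1, 39.4 and 38.4 CPM to the counting floor. Ubd (log2 fold change -7.91 ± 0.22), Nkx1-2 (-7.74 ± 0.22), Tdh (-7.40 ± 0.07), T (-7.28 ± 0.12), Vrtn (-7.11 ± 0.19), Gstm3, Nlrc4, Osm, Cdx2 (-6.47 ± 0.22), Pglyrp1 and Epp13 followed. Tdh, which encodes the threonine dehydrogenase that mouse embryonic stem cells depend on, had 707, 729 and 722 CPM in PM and 4.14, 4.40 and 4.22 CPM in D4 CD1530.

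**Figure D1:**
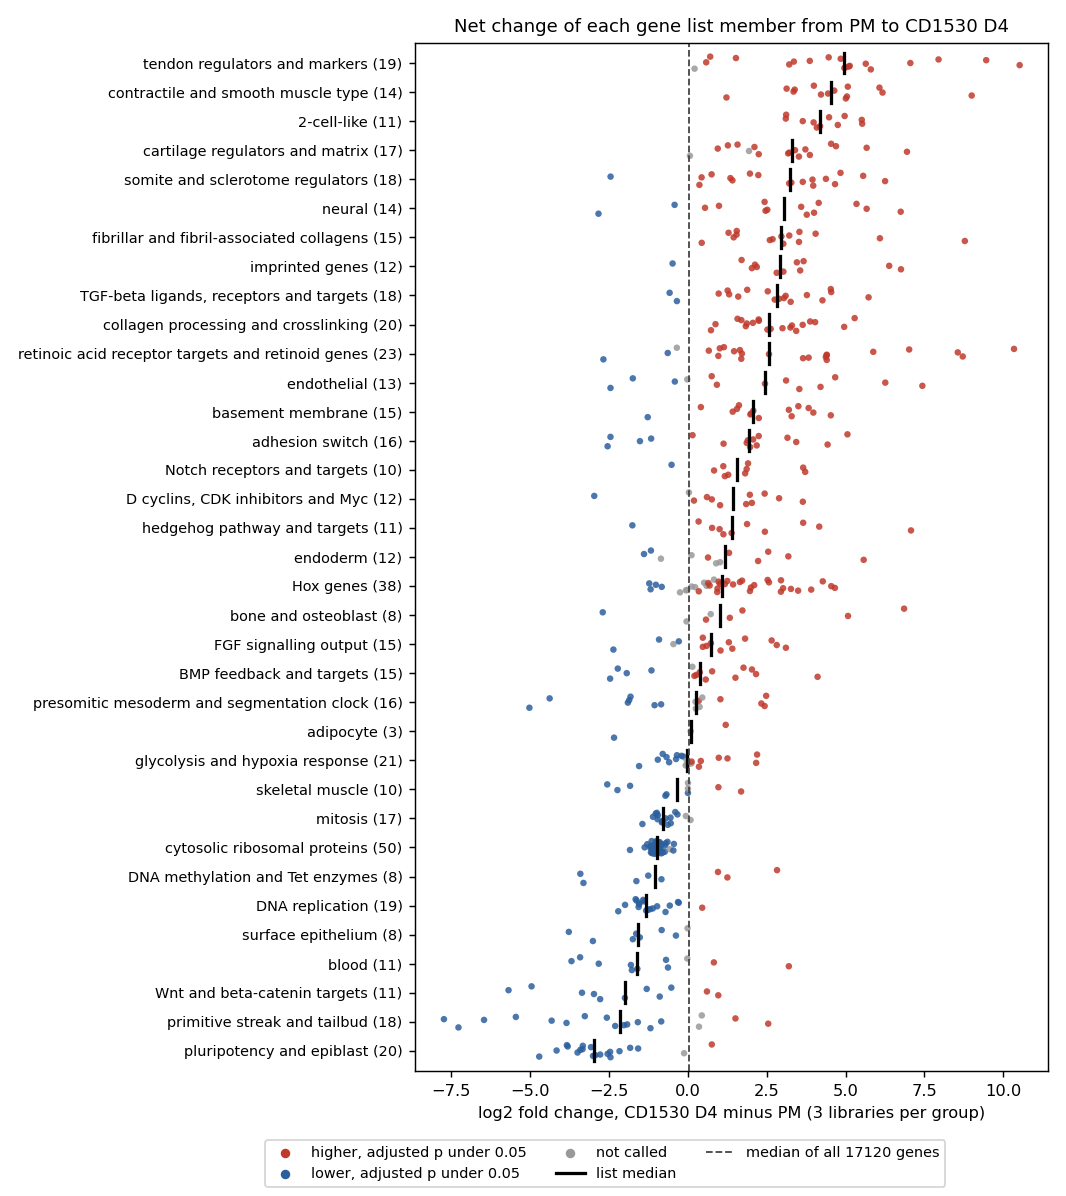
Log2 fold change (horizontal axis) of each measured member of 35 gene lists (vertical axis, members in the table in parentheses), D4 CD1530 minus PM, with 3 libraries per group. Genes at the counting floor in PM or D4 CD1530 are drawn at their bound, black bars are list medians and the dashed line is the median of all genes. Tendon, contractile, cartilage and collagen lists lie to the right, pluripotency, tailbud and Wnt lists to the left, and mitosis and ribosomal protein genes lie in a narrow band mostly below 0.

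The starting PM cultures were read first through the genes that define early states. Pou5f1, which encodes the pluripotency factor OCT4, had 701, 709 and 693 CPM in PM and 28.4, 26.0 and 25.5 CPM in D4 CD1530 (log2 fold change -4.72 ± 0.06, adjusted p = 1.9e-43). Of 20 pluripotency and epiblast genes in the table, 18 fell, all 18 beyond 2-fold, Fgf5 rose (0.76 ± 0.30, and 0.38 without PM replicate 1, which ended the call) and Lin28b was not called (-0.12 ± 0.08), with a median of -2.98. Their summed level went from between 6320 and 6410 CPM in the PM libraries to between 757 and 771 CPM in D4 CD1530. Nanog (466 ± 7.61 to 46.1 ± 1.18 CPM), Sox2 (536 ± 6.44 to 77.9 ± 5.32 CPM) and Esrrb (542 ± 10.2 to 37.9 ± 0.877 CPM) thus remained detected at D4. The decline was gradual for Pou5f1, which had 329 ± 14.5 CPM at day 0.25, 321 ± 3.31 at day 1.5 and 151 ± 4.51 at day 2.5.

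The defining markers of presomitic mesoderm were present in PM at low levels. Per kilobase of exon, Tbx6 stood at 5.30 CPM and Msgn1 at 5.52 CPM in PM, against 312 CPM for Pou5f1 and 34.1 CPM for T, the Brachyury gene of primitive streak and tailbud. Tbx6, a T-box factor required for paraxial mesoderm, had 10.4, 8.97 and 9.26 CPM in PM and 0.303, 0.440 and 0.112 CPM in D4 CD1530 (log2 fold change -5.03 ± 0.29). Msgn1, the bHLH factor of the same tissue, went to the floor and was at least 20.9-fold lower. The label paraxial mesoderm is therefore used here as the name of the culture, in which pluripotency genes had far higher levels per length than Tbx6 and Msgn1. Of 18 streak and tailbud genes 14 fell and 2, Foxa2 and Sp8, rose, with a median of -2.44, or -2.17 with genes at the floor set to their bound. T fell from 74.9, 79.2 and 82.9 CPM to 0.455, 0.660 and 0.394 CPM, and Nodal, Mixl1, Fgf8, Fgf17, Eomes, Cdx1, Cdx2 and Cdx4 fell with it. The 16 presomitic and clock genes went both ways, with 5 higher (Pcdh19, Hey2, Rspo3, Dusp4 and Epha4), 7 lower and 4 not called, among them Hes7 (0.24 ± 0.42) and Lfng (0.25 ± 0.14).

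Genes of the somite and the sclerotome were higher at D4. Of 18 measured members 17 rose, 13 beyond 2-fold, and Uncx, a marker of the posterior somite, fell (-2.45 ± 0.20), with a median of 3.25. Foxc1 (17.9 ± 0.737 to 372 ± 11.9 CPM), Foxf2 (1.64 ± 0.638 to 128 ± 3.5 CPM) and Twist1 (26.2 ± 1.34 to 243 ± 14.3 CPM), transcription factors of somite mesenchyme, were among them. The factors that specify sclerotome, Pax1, Pax9 and Nkx3-2, rose by 4.67 ± 0.23, 4.84 ± 0.25 and 5.56 ± 0.30, but from and to low levels: Pax1 had 0.383, 0.189 and 0.323 CPM in PM and 6.97, 7.76 and 8.38 CPM in D4 CD1530. Meox1, Tcf15, Pax1 and Pax9 had their highest mean before day 4, Tcf15 at day 1.5 (51.8 CPM) and the other 3 at day 2.5 (Meox1 131, Pax1 9.32 and Pax9 10.3 CPM).

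Tendon genes had the highest median of the lists once genes at the floor were set to their bound. Scx had 7.18, 6.56 and 5.49 CPM in PM and 838, 866 and 869 CPM in D4 CD1530 (log2 fold change 7.06 ± 0.06, adjusted p = 9.7e-49), with no overlap between the groups, as for 84.4% of all genes. Of 19 tendon regulators and markers 18 rose and none fell, 16 beyond 2-fold, with a median of 4.96 beside 0.04 over all genes. Mkx, the homeobox factor that maintains tendon collagen, went from 1.27 ± 0.0778 to 36.7 ± 2.15 CPM, and Tnmd, a membrane glycoprotein of mature tendon, rose at least 34.3-fold but reached only 5.12 ± 0.593 CPM. Among proteoglycan and matricellular genes the D4 CD1530 level was, for Dcn 1054 ± 8.13, Bgn 1296 ± 17, Lum 271 ± 1.94, Fmod 434 ± 7.72, Tnc 2605 ± 43.2 and Postn 1907 ± 26.7 CPM. Comp, the one member not called, had 1.90 ± 0.380 CPM in PM and 2.21 ± 0.471 CPM in D4 CD1530 (0.21 ± 0.22, adjusted p = 0.38). Order in time differed between members: Scx was at 111 ± 1.04 CPM by day 0.25 and highest at day 2.5, while Tnmd, Ogn and Fmod stayed below 1 CPM at day 0.25 and were highest at day 4.

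The collagen machinery rose as a block. All 15 genes of the list of fibrillar and fibril-associated collagens rose, 14 beyond 2-fold. Together they went from between 2980 and 3780 CPM in PM to between 26100 and 26900 CPM. Col1a1, the main chain of tendon collagen, had 1383, 1316 and 1061 CPM in PM and 9693, 10141 and 9521 CPM in D4 CD1530 (2.96 ± 0.11), already the most abundant of these genes per length in PM, at 191 CPM per kilobase of exon. The steepest rises in the list were those of Col8a1 (8.78 ± 0.07), Col14a1 (6.09 ± 0.12) and Col5a2 (4.05 ± 0.08), and the smallest that of Col5a3 (0.44 ± 0.11). Col8a1 was counted in this list although it encodes a network-forming collagen, neither fibrillar nor fibril-associated. All 20 genes for collagen processing and crosslinking rose, 18 beyond 2-fold, and all 20 had their highest mean of the series at day 4, beside 31.0% of all genes. Among them Lox, lysyl oxidase, had 61.3, 63.8 and 52.1 CPM in PM and 1842, 1837 and 1833 CPM in D4 CD1530 (4.96 ± 0.12), with a step from 379 ± 11.4 CPM at day 2.5. Serpinh1, the collagen chaperone HSP47, reached 2594 ± 28 CPM and Plod2, which makes the hydroxylysines of tendon crosslinks, 721 ± 1.30 CPM. Basement membrane genes took the same direction in 14 of 15 members (median 2.07), with Col4a1 at 3232 ± 1.93 CPM in D4 CD1530, and Lama5 fell (201 ± 20.6 to 83.1 ± 2.52 CPM, -1.28 ± 0.12).

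Cartilage genes also rose along this trajectory, at lower levels. Of 17 measured members 15 rose, 13 beyond 2-fold, and Hapln1 and Cnmd were not called, with a median of 3.22. Col2a1, the collagen of cartilage, had 11.2, 11.2 and 10.5 CPM in PM and 141, 146 and 150 CPM in D4 CD1530 (3.73 ± 0.06), and its highest mean was 386 ± 7.27 CPM at day 1.5. Acan, the aggrecan gene, had 1.07 ± 0.0173 CPM in PM and 4.66 ± 0.674 CPM at D4, and Sox9, the cartilage master regulator, 6.52 ± 0.679 and 69.0 ± 1.94 CPM. In D4 AGN the same genes stood at 2497 CPM for Col2a1, 215 CPM for Acan and 143 CPM for Sox9. Tested directly, D4 CD1530 was lower than D4 AGN in 16 of the 17 genes and higher in Col10a1, where 7980 of all genes (46.6%) differed between the ligands, 3878 (22.7%) higher and 4102 (24%) lower with CD1530. That split turned to 4450 higher and 3495 lower when scaled by library size only, and to 4487 and 4225 when the 6 D4 libraries were fitted alone. Of the 19 tendon genes, 5 were higher and 11 lower with CD1530 than with AGN.

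**Figure D2:**
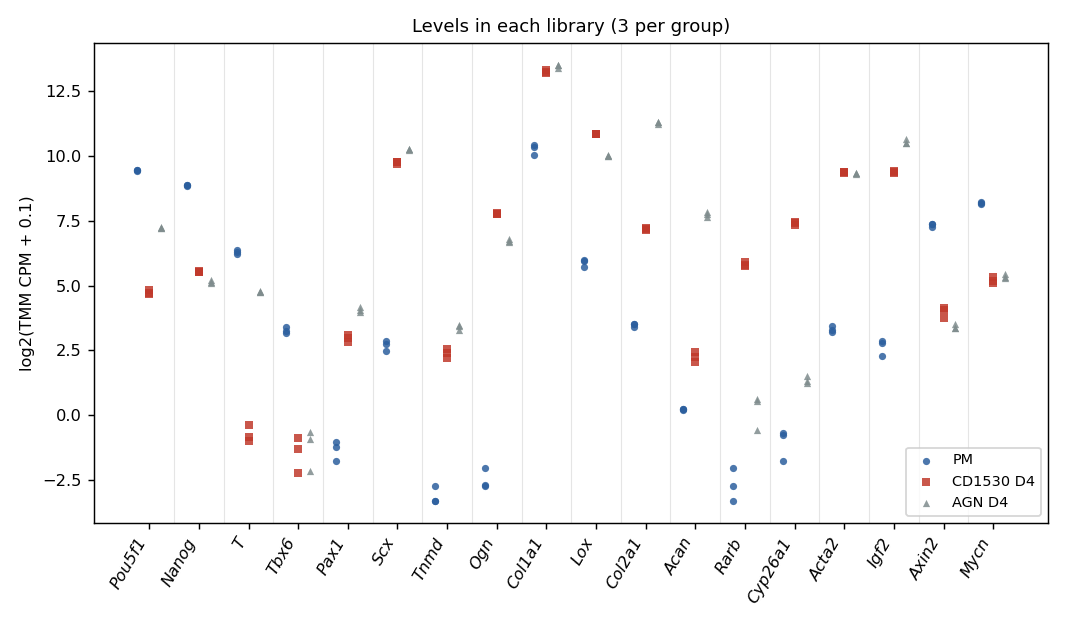
Level of 18 genes in each library of PM, D4 CD1530 and D4 AGN, as log2(CPM + 0.1) on the vertical axis, with 1 point per library. Libraries of a group lie close together, and the PM and D4 CD1530 libraries do not overlap for any of the 18 genes, as for 84.4% of all genes. Scx, Ogn, Col1a1, Lox and Acta2 are high in both D4 groups, whereas Rarb and Cyp26a1 are high in D4 CD1530 and Col2a1 and Acan are higher in D4 AGN.

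Retinoid genes rose, by the largest folds Stra8, Rarb and Cyp26a1. Rarb, the retinoic acid receptor beta gene and a classic target of its own family, had 0.144, 0.047 and 0 CPM in PM and 55.1, 53.3 and 60.2 CPM in D4 CD1530, and 38.4% of its annotated exon bases overlap exons of Top2b and a predicted gene. Cyp26a1, the enzyme that clears retinoic acid, had 0.191, 0.520 and 0.485 CPM in PM and 163, 175 and 170 CPM in D4 CD1530 (8.72 ± 0.10, adjusted p = 6.5e-44). Both were near the bottom of detection in PM and high in all 3 D4 libraries. Whether the PM medium held the inverse agonist, retinoic acid or neither was not given in the sources used here. The paper reports that retinoic acid added at the PM stage abolished nearly all later ScxGFP induction. It also calls the protocols used for this sequencing highly efficient. The receptor state of PM was not tested, and the folds of retinoid genes are relative to that culture. Stra8, a retinoic acid response gene best known from germ cells entering meiosis, had 0.144, 0.236 and 0.054 CPM in PM and 200, 200 and 202 CPM in D4 CD1530. Of 23 genes of the list 20 rose, 16 beyond 2-fold, with Dhrs3, a retinaldehyde reductase (5.88 ± 0.08), Aldh1a3 (7.02 ± 0.07), Crabp2, Tgm2, Stra6 and Cyp26b1 among them. Aldh1a2, the enzyme that makes retinoic acid in paraxial mesoderm, fell from 31.4 ± 1.08 to 4.87 ± 0.743 CPM (-2.68 ± 0.09), and Crabp1 fell by 0.64 ± 0.08. Rarg, which encodes the receptor that CD1530 targets, rose from 47.2 ± 1.99 to 130 ± 4.40 CPM (1.46 ± 0.05). In D4 AGN Rarg stood at 133 ± 4.92 CPM, and the direct test did not separate the ligands (-0.03 ± 0.05, adjusted p = 0.65).

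The time courses of these targets differed. Cyp26a1 reached 74.1 ± 0.807 CPM by day 0.25 and 168 ± 10.4 CPM at day 0.75, was at 71.6 ± 2.98 CPM at day 1.5 and returned to 169 ± 5.76 CPM at day 4. Stra8 stayed at 0.200 ± 0.140 CPM at day 0.25 and reached 231 ± 4.52 CPM at day 2.5, and Rarb had a higher mean at every later time. In D4 AGN, Cyp26a1 stood at 2.45 CPM, Rarb at 1.12 CPM and Dhrs3 at 7.70 CPM, and the direct difference between the ligands was 6.11, 5.63 and 4.94 on the log2 scale. Stra8 was at the counting floor in D4 AGN, so that D4 CD1530 was at least 1102-fold higher.

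The stretches before the RefSeq starts of Cyp26a1 and Rarb (GRCm38.p6) are shown because they hold, in capitals, the direct repeat with a spacer of 5 bases that retinoic acid receptors bind. The lines end at the last base before the start and run along the gene's strand.
Rarb, chr14:16575477-16575606, minus strand: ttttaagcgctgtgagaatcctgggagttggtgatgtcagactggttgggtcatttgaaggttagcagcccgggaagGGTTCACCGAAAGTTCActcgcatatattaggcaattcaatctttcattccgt
Cyp26a1, chr19:37697678-37697807, plus strand: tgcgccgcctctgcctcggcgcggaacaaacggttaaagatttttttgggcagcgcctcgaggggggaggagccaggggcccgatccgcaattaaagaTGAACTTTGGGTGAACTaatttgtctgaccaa
The repeat was searched on both strands by its name, DR5, for half-sites like AGGTCA, and on the Cyp26a1 line it reads on the opposite strand. It was present in 32 of 32851 windows of 250 bases before to 50 after a start (0.0974%). Of the 18 retinoid genes with a window these 2 held it, while only 7 genes with it were in the count table, 4 called higher and 2 lower, so the letters are a description of these windows and not of where a receptor was bound.

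**Figure D3:**
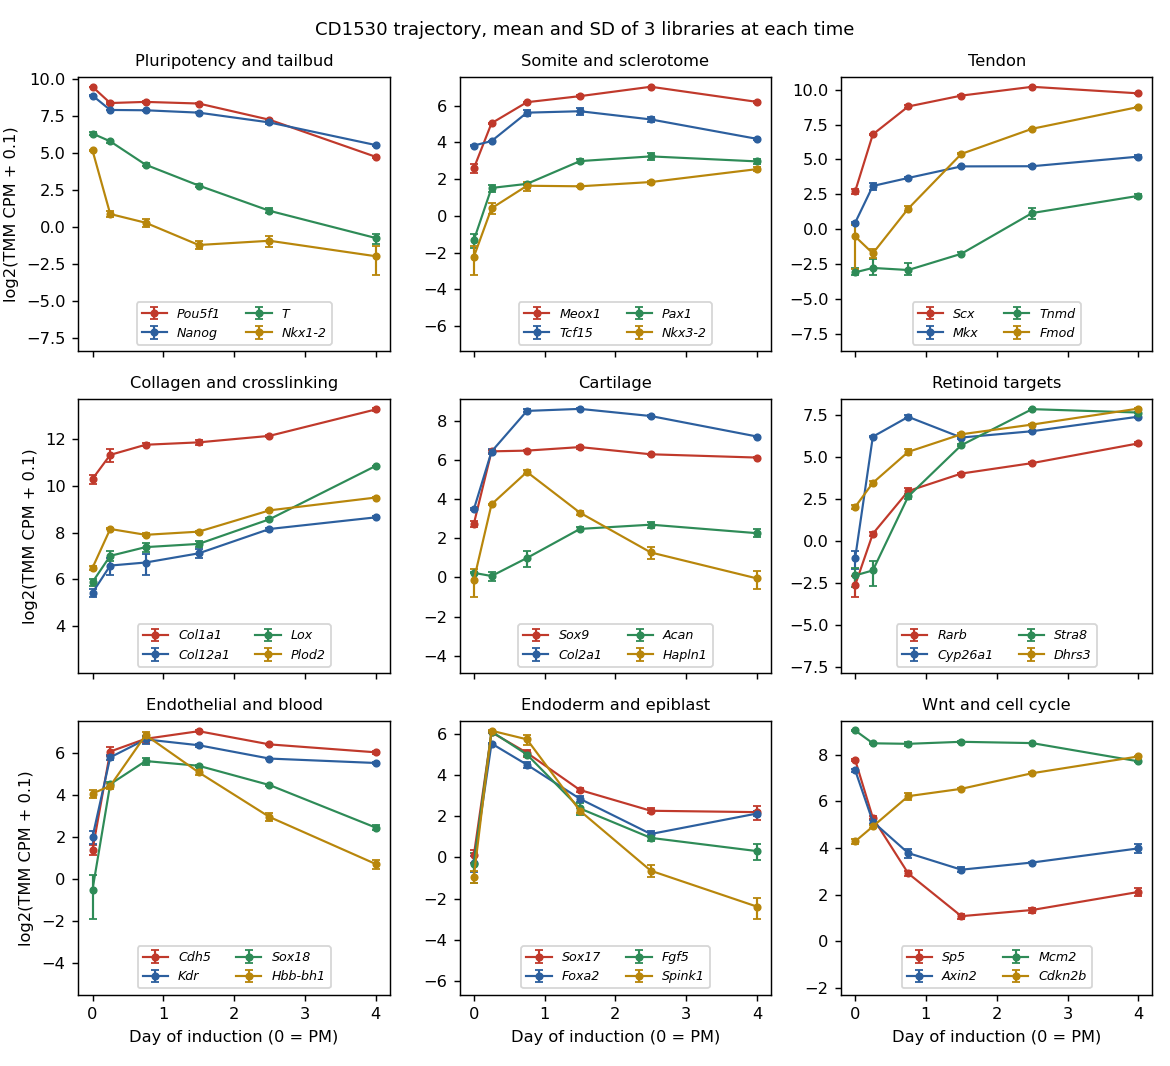
Mean level of 36 genes in the CD1530 series as log2(CPM + 0.1) on the vertical axis against the day of induction, where day 0 is PM, with bars for the SD of 3 libraries. The panels group genes by role. Collagen and crosslinking genes are highest at day 4, Scx and Meox1 at day 2.5, while Hbb-bh1 and Sox18 peak at day 0.75 and Sox17, Foxa2, Fgf5 and Spink1 at day 0.25.

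Signalling outputs changed in different directions. Wnt target genes were lower at D4, with 9 of 11 lower and 2, Ccnd1 and Lgr5, higher (median -2.0). Axin2, the negative feedback gene of the pathway, had 165, 154 and 168 CPM in PM and 17.3, 13.5 and 16.6 CPM in D4 CD1530 (-3.36 ± 0.07), and Sp5, a target that represses further Wnt output, fell from 221 ± 8.14 to 4.25 ± 0.529 CPM (-5.69 ± 0.08). Both were lower by day 0.25, at 35.0 ± 1.96 and 39.3 ± 1.86 CPM, and had their lowest mean at day 1.5. CHIR, the Wnt agonist of the PM medium, is not listed for the induction medium, and its part was not tested. Of 7 Wnt genes with a promoter window, Sp5 alone held the letters ATCAAAG that TCF factors bind, which 3.73% of windows hold. Among 350 tested genes with these letters, 154 were called higher and 147 lower, beside 43.3% and 39.9% of all genes. The letters are a description of the window only. The stretch before the start of Sp5 follows, with the match in capitals on the opposite strand.
Sp5, chr2:70474793-70474922, plus strand: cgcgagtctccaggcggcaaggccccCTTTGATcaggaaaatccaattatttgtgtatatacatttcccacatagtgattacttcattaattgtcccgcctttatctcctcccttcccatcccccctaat

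Hedgehog genes were higher in 10 of 11 cases (median 1.39). Gli1, the transcriptional readout of the pathway, had 3.49, 3.59 and 4.26 CPM in PM and 48.2, 46.0 and 48.2 CPM in D4 CD1530 (3.66 ± 0.10), Hhip rose by 7.08 ± 0.17 and Ptch1 by 1.39 ± 0.08. None of the 8 members with a promoter window held GACCACCCA, letters bound by GLI factors, which 0.253% of windows hold. TGF-beta ligands, receptors and targets were higher in 16 of 18 cases, 15 beyond 2-fold (median 2.82). They included the targets Pmepa1 (22.9 ± 2.26 to 530 ± 11.1 CPM), Ccn2 and Tgfbi, the ligands Tgfb2 and Tgfb3 (5.73 ± 0.07) and the receptor Tgfbr2. Smad7, the inhibitory SMAD that TGF-beta induces in many cells, went the other way, from 84.2, 81.8 and 82.1 CPM to 64.8, 66.5 and 63.4 CPM (-0.35 ± 0.06, adjusted p = 2.6e-06), and Tgfbr3 fell by 0.58 ± 0.08.

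FGF outputs were mixed, with 11 of 15 higher (Dusp6 1.81 ± 0.03, Spry1 2.66 ± 0.06) and Etv5 (-2.36 ± 0.04), Spry2 and Spred2 lower. BMP feedback genes also went both ways, with 10 of 15 higher (Smad6 2.03 ± 0.10, Bmp4 2.16 ± 0.06) and Id4, Msx1, Msx2 and Grem1 lower. The BMP inhibitor LDN-193189 of the PM medium is not listed for the induction medium either, and its part was not tested. Over all genes, 43.3% were called higher and 39.9% lower. Of 10 Notch genes 9 rose, led by Heyl (3.72 ± 0.07), and Hey1 fell (-0.52 ± 0.09).

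Cell cycle genes fell, but by modest amounts and unevenly. Of 19 DNA replication genes 18 fell, 13 beyond 2-fold (median -1.32), as did Mcm2, a subunit of the replicative helicase, from 528 ± 4.60 to 211 ± 2.55 CPM. Of 17 mitosis genes 15 fell, 1 of them (Ccnb1) beyond 2-fold, and none rose (median -0.79). Mki67, the usual proliferation marker, had 240, 198 and 223 CPM in PM and 244, 220 and 237 CPM in D4 CD1530, overlapping groups that the test did not separate (0.08 ± 0.14, adjusted p = 0.60, and -0.030 when scaled by library size only). Among regulators of G1, 10 of 12 rose, including Ccnd2 (2.89 ± 0.06) and the CDK inhibitor genes Cdkn2b (19.4 ± 1.51 to 244 ± 4.73 CPM, 3.64 ± 0.06), Cdkn1c, Cdkn2a and Cdkn1a. The MYC family exchanged members: Mycn fell from 296, 291 and 284 CPM to 34.2, 40.6 and 36.3 CPM (-2.97 ± 0.05), and Myc rose from 11.3, 14.1 and 11.8 CPM to 50.9, 50.3 and 44.4 CPM (1.96 ± 0.07). Cytosolic ribosomal protein genes fell in 49 of 50 cases (median -0.99 beside 0.04 over all genes), and their summed level went from between 31500 and 34400 CPM to between 15800 and 16400 CPM. Many of these genes have near-identical pseudogene copies, and how the authors' counting shared such reads was not given, which also holds for Gapdh at 37.6 ± 3.54 CPM in PM.

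Contractile genes rose without exception. All 14 rose beyond 2-fold, with a median of 4.54. Acta2, smooth muscle alpha actin, had 9.71, 10.6 and 9.10 CPM in PM and 670, 668 and 654 CPM in D4 CD1530 (6.08 ± 0.06), most of it gained between day 0.75 (22.3 ± 3.29 CPM) and day 2.5 (521 ± 3.76 CPM). Tpm1 and Cald1 reached 1493 ± 10.7 and 1414 ± 27.3 CPM. Myocd, the cofactor that drives the smooth muscle programme, rose to only 1.94 ± 0.287 CPM, and Tagln, whose exon bases overlap those of Pcsk7 and a predicted gene over 67.9% of their length, was counted at 5.63 ± 0.655 CPM. Of 10 contractile genes with a promoter window, Cnn2 and Myl9 held a CArG box, the site of serum response factor. The box is in 1.63% of all windows, and both strands were searched. Among 176 tested genes with it, 84 were called higher and 62 lower, beside 43.3% and 39.9% of all genes. Here too the letters are a description of the windows only. The stretches of Cnn2 and Myl9 up to the start are shown with the box in capitals.
Cnn2, chr10:79988470-79988599, plus strand: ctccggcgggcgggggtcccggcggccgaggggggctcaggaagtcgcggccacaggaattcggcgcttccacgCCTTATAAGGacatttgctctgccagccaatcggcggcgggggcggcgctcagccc
Myl9, chr2:156775293-156775463, plus strand: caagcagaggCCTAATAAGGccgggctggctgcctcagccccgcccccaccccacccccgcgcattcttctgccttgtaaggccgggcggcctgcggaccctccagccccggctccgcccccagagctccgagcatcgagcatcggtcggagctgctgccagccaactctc

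Adhesion genes moved from epithelial to mesenchymal members. Cdh1, E-cadherin, fell from 431 ± 15.4 to 78.5 ± 1.06 CPM and Epcam, Cldn6 and Cldn7 fell with it, whereas Cdh2 (1.86 ± 0.05) and Cdh11 (54.5 ± 3.86 to 1176 ± 13.4 CPM) and 10 further members rose. All 7 called surface epithelium markers of 8 in the table fell, Grhl2 by 3.78 ± 0.10. Imprinted growth genes rose in 11 of 12 cases (median 2.92), among them Igf2 (7.13, 4.77 and 6.84 CPM to 660, 670 and 692 CPM), H19, Mest, Peg3, Grb10 and Zim1, and Peg10 fell by 0.49 ± 0.09. For Igf2, 64.6% of the exon bases overlap exons of the antisense gene Igf2os and a predicted gene. The de novo DNA methyltransferase gene Dnmt3b fell from 333 ± 2.26 to 31.2 ± 1.34 CPM, and Dnmt3l, Uhrf1, Dnmt1 and Tet1 fell, while Dnmt3a, Tet2 and Tet3 rose.

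Hox genes, which give cells their position along the body axis, were more often higher than lower. Of 38 measured members 26 rose, 15 beyond 2-fold, 4 fell and 8 were not called (median 1.09). Over all genes 43.3% rose, 21% beyond 2-fold, and 39.9% fell. Hoxa5 had 4.40, 3.40 and 3.93 CPM in PM and 92.2, 91.3 and 90.9 CPM in D4 CD1530 (4.55 ± 0.10), and Hoxb5 rose by 4.66 ± 0.12, Hoxa4 by 4.28 ± 0.20 and Hoxa3 by 3.91 ± 0.11. From group 9 on, directions were mixed: Hoxa9 (-0.83 ± 0.18), Hoxd9 (-1.18 ± 0.10), Hoxc11 (-1.23 ± 0.26) and Hoxd11 (-1.02 ± 0.15) fell, Hoxb9 (1.01 ± 0.11), Hoxc9 (0.93 ± 0.20) and Hoxb13 (1.43 ± 0.38) were among those that rose, and Hoxa10, Hoxc10, Hoxd10 and Hoxa11 were not called. Levels in groups 10 to 13 were at most 5.24 CPM in PM and 4.18 CPM in D4 CD1530. Side by side, D4 AGN differed from the same PM libraries in 82% of all genes (41.6% higher and 40.4% lower) and had a median of -0.33 over the 38 genes. The direct test found 25 higher and 1, Hoxa13, lower with CD1530 than with AGN, beside 22.7% and 24% of all genes. Over all genes, 327 (1.91%) had net changes of opposite sign in the 2 ligands with all 3 contrasts called.

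**Figure D4:**
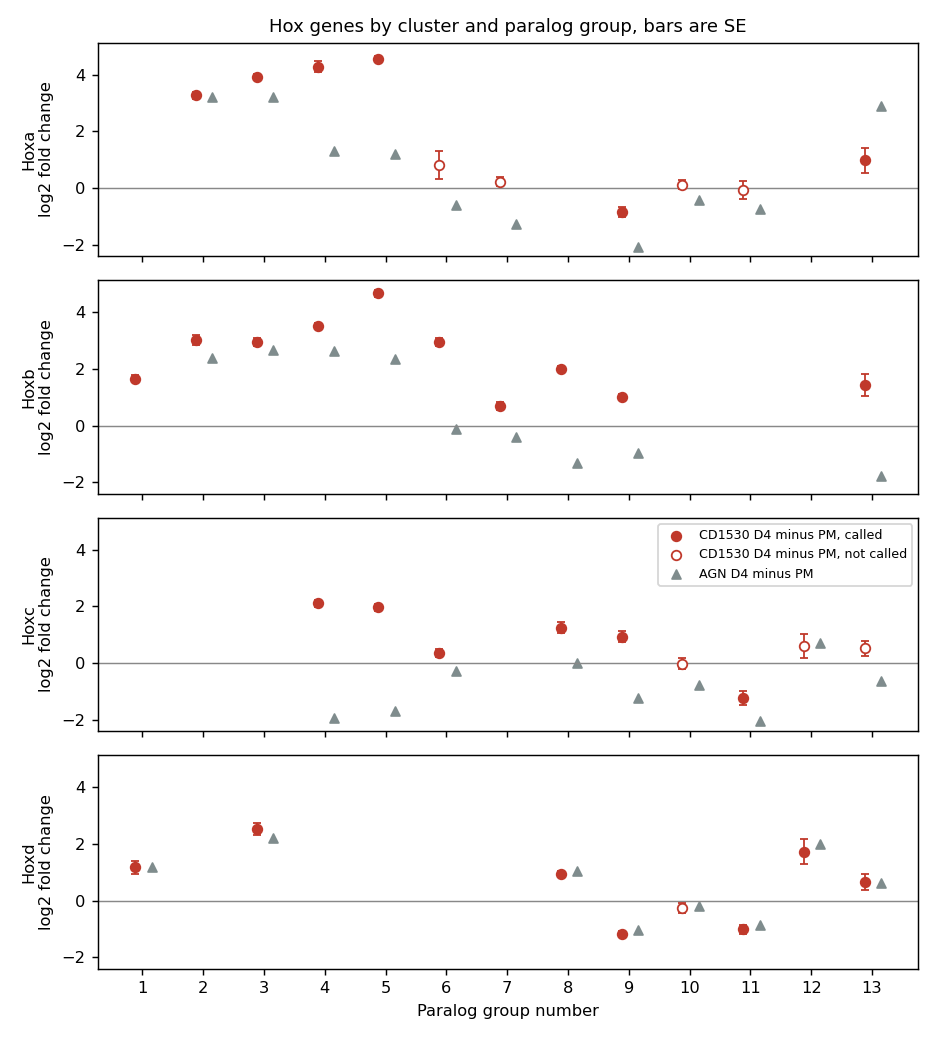
Log2 fold change over PM (vertical axis) of the Hox genes against their paralog group (horizontal axis), with 1 panel per cluster. Red circles are D4 CD1530 with the SE, filled where called, and grey triangles are D4 AGN. The genes drawn of groups 1 to 5 rise in all 4 clusters with CD1530, up to 4.66 for Hoxb5, and the AGN point of Hoxb1, at the counting floor, is left out.

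Markers of other lineages were read to see what else the cultures held. Over all genes 43.3% were called higher and 39.9% lower, and some of the lineage counts in this and the next paragraph lie near those shares. Neural genes rose in 12 of 14 cases (median 3.06). Sox1, a marker of early neural tissue, had 0.144, 0.047 and 0.054 CPM in PM and 14.2, 16 and 17.9 CPM in D4 CD1530, at least 108-fold higher, and Dcx, Pax6, Neurog1, Neurog2, Elavl4 and Chrna3 rose to between 2.64 and 10.4 CPM. Stmn2 (82.4 ± 3.61 to 11.5 ± 0.344 CPM) and Tubb3 fell, so that the summed level of the 14 genes was between 144 and 154 CPM in PM and between 134 and 140 CPM in D4 CD1530. All 11 measured genes of the 2-cell-like state, a rare state of mESC cultures marked by Zscan4, rose from at most 0.335 CPM in sum to between 33.2 and 36.7 CPM. Of these, 9 had their highest mean at day 2.5, beside 9.52% of all genes. Zscan4c, for example, had 0, 0.047 and 0.054 CPM in PM and 7.53, 6.99 and 5.90 CPM in D4 CD1530. In D4 AGN all 11 were at the counting floor, and reads cannot be assigned with certainty among the near-identical Zscan4 and Usp17l copies.

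Endothelial genes rose in 9 of 13 cases (median 2.44), led by Erg (0.248 ± 0.0954 to 43.9 ± 1.09 CPM), Emcn and Cdh5, and Pecam1 fell from 92.9 ± 1.97 to 27.6 ± 2.84 CPM. Blood genes fell in 8 of 11 cases, the embryonic globin gene Hbb-bh1 from 16.5 ± 2.31 to 1.53 ± 0.251 CPM, and Runx1 rose (10.0 ± 0.708 to 92.4 ± 3.23 CPM). Skeletal muscle genes were lower in 6 of 10 cases and higher in 2, or in 5 and 1 when the 6 compared libraries were fitted alone, and their summed level went from between 41.4 and 43.8 CPM to between 15.5 and 17.2 CPM. Mymx, a factor of myoblast fusion, fell from 24.8 ± 0.516 to 4.21 ± 0.636 CPM, and the regulators Myod1 (0.149 ± 0.0497 and 0 CPM) and Myog (0.0658 ± 0.0725 and 0.109 ± 0.113 CPM) were close to the counting floor in both groups. Of 8 bone genes 5 rose, among them Runx2 (4.08 ± 0.657 to 13.6 ± 0.727 CPM) and Dmp1 (to 17.3 ± 0.276 CPM), Alpl fell from 419 ± 15.7 to 64.3 ± 3.83 CPM, and Sp7, the osteoblast factor, was not called (0.248 ± 0.0954 and 0.410 ± 0.120 CPM). Endoderm genes rose in 6 of 12 cases (50%, beside 43.3% of all genes) and fell in 2, or 5 called in all when the 6 compared libraries were fitted alone. Foxa1 rose most (1.66 ± 0.347 to 79.7 ± 1.34 CPM), while Ttr was at the counting floor in both groups and Afp was not called (0.160 ± 0.116 and 0.340 ± 0.153 CPM). Only 3 of 8 listed adipocyte genes were in the table, with Cebpa higher, Fabp4 lower and Lpl not called. The part that such lineages have in the changes of other lists was not tested.

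A comparison of the ends misses what happened between them. By group mean, 5910 genes were highest in PM, 5310 at day 4 and the rest in between, and 103 genes reached at least 10 CPM and at least 4 times both ends at an intermediate time. Of these 103, 84 were called in the net comparison and 19 were not, where 83.2% of all genes were called. The time of the peak was day 0.25 for 58, day 0.75 for 32, day 1.5 for 11 and day 2.5 for 2. These genes were picked for this shape, so their values are a description. Fgf5, an epiblast growth factor, had 0.689 ± 0.373 CPM in PM, 69.2 CPM at day 0.25 and 1.14 ± 0.312 CPM at day 4. Lhx1, a factor of early mesendoderm, went from 1.46 to 110 and back to 1.53 CPM (net 0.09 ± 0.23), Gsc from 1.23 through 42.0 to 1.59 CPM, and Hapln1, a link protein of cartilage, from 0.808 through 41.4 at day 0.75 to 0.862 CPM (0.06 ± 0.30). The pepsinogen gene Pga5 had the largest excursion, from 0.850 through 214 at day 0.75 to 0.518 CPM, and Spink1 reached 71.1 CPM at day 0.25. Endothelial and blood genes were among those highest at day 0.75, in 8 of 13 and 8 of 11 cases, as were 5 of 10 skeletal muscle genes, beside 7.47% of all genes. Of 12 endoderm genes 7 were highest at day 0.25, beside 11% of all genes.

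**Figure D5:**
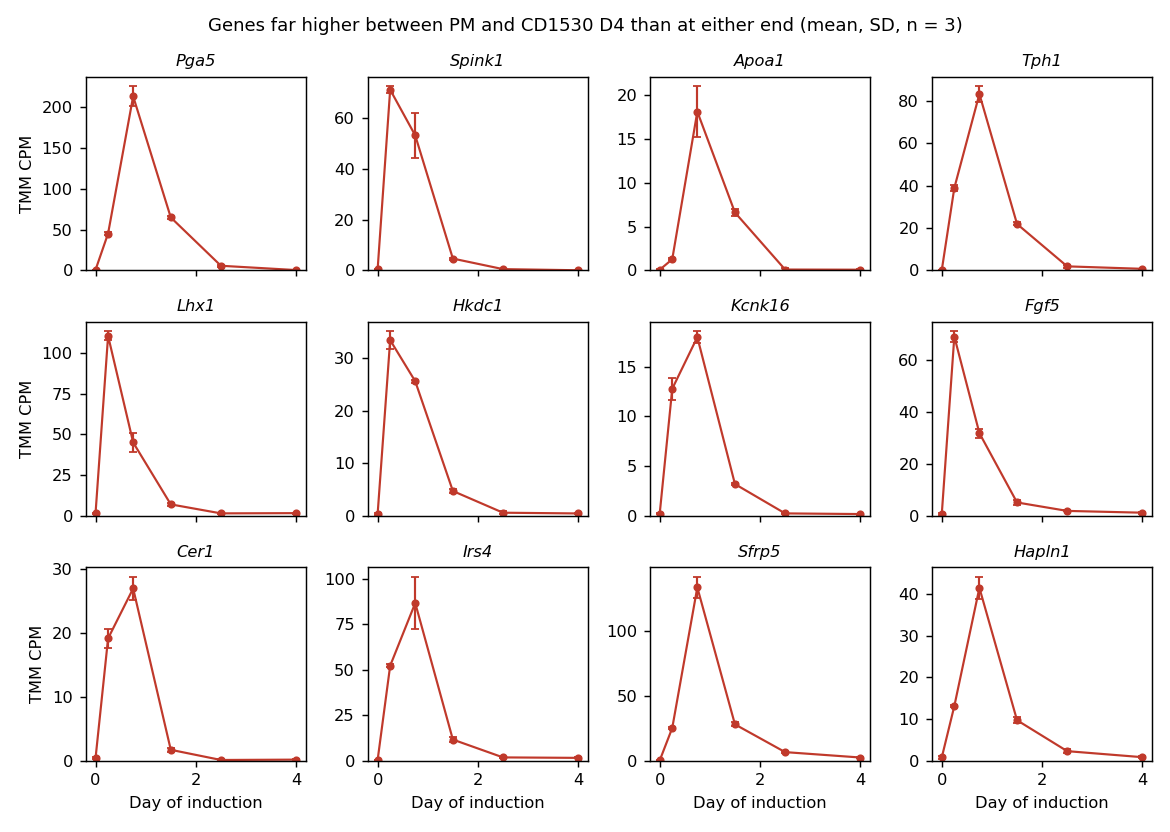
Mean CPM (vertical axis) against day of induction in the CD1530 series for the 12 genes, without predicted genes, whose intermediate mean most exceeded both PM (day 0) and day 4, with bars for the SD of 3 libraries. All 12 peak at day 0.25 or 0.75, and Sfrp5 keeps the largest net log2 fold change of them at day 4 (3.42).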

How the data were processed

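RNA from 33 mouse cell culture libraries was sequenced, and per the labels and the study's methods the authors aligned reads to GRCm38 with STAR and deposited raw counts per gene from featureCounts, with 17120 genes in the table. How strand and reads with several matches were treated is not given in the sources used here. Libraries were grouped by their labels. The main test was edgeR's robust quasi-likelihood test (version 4.0.16, R 4.3.3) with TMM scaling on all 33 libraries, 11 group means and Benjamini-Hochberg adjustment, and edgeR's test against a minimum fold of 2 for larger changes. The filter on low counts removed 0 genes. On simulated data with 200 changed genes among 17120, 198 were recovered with 14 false calls. There the changed genes were not drawn from the lowest levels, and all other genes had the same mean in every group. In the real comparison 83.2% of genes passed, so the simulation does not measure its false calls or its dependence on scaling.

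A counting floor of 3 counts per library was used for genes near 0, and such bounds cover counting error only. Genes were named by rule. The first were the 12 largest gains and 12 largest losses by fold among called genes with libraries that do not overlap and a mean of at least 10 CPM, without predicted genes. The others were the 6 largest gains and losses in CPM, the key members of each list, the called member with the largest change in each direction per list, and list members with opposite net changes in the 2 ligands. Further list members were named to describe a list, and a few members are counted but not reported here by name. Genes and lists were chosen with earlier results of these data known. Promoter sequences came from RefSeq (GRCm38.p6). Alternatives covered scaling, filters, fit, DESeq2 (version 1.42.0), a replicate block and each library left out. P-values rest on the spread between the 3 libraries of a group, estimated over all 11 groups and 33 libraries and not from the 2 compared groups alone.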

Additional observations from a re-analysis of the deposited data

Results flagged for a closer look

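The direct test of D4 CD1530 against D4 AGN called 7980 genes, and 327 genes (1.91%) changed in opposite directions from PM in the 2 ligands with all 3 contrasts called. Both net changes share the PM libraries, so only the direct difference is a test of the ligands. Among list members with opposite changes, the log2 difference of D4 CD1530 minus D4 AGN was negative for Dnmt3b (-3.498), Otx2 (-5.277), Evx1 (-3.141), Dkk1 (-1.856), Hey1 (-1.388), Cer1 (-5.808) and Trp63 (-2.97). It was positive for the Hox genes Hoxb7 (1.075), Hoxb8 (3.306), Hoxb9 (1.98), Hoxb13 (3.204), Hoxc4 (4.054), Hoxc5 (3.664) and Hoxc9 (2.158), and Hoxb1 was at least 135.4-fold higher, since D4 AGN was at the counting floor. It was also positive for the neural genes Pax6 (4.818), Elavl4 (4.055) and Olig2 (0.938), for the retinol transporter gene Stra6 (5.104), and for Ccnd1 (1.187), Tcf15 (0.847), Spp1 (0.794), Nid2 (0.692), Col5a3 (0.691), Bmp2 (0.435) and Mycl (0.369). The net calls against PM of Dkk1, Cer1, Bmp2 and Mycl were lost in some alternative runs. For Cer1 that net change was from 0.41 CPM in PM to 0.18 CPM in D4 CD1530. With 3 libraries per group no library was tested as standing apart.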

How the results depend on the processing

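The named genes kept their direction and side of the threshold under each alternative run, except those given here. Counts of called genes and of called list members were checked only for large moves, so smaller ones are not all given. For example, Hox genes called higher went from 26 to 23 by library size only. Endoderm genes went from 6 higher and 2 lower to 6 and 3 without PM replicate 3. Scaling by library size alone moved the median over all genes, as a log2 fold change, from 0.04 to -0.07. It turned the net split of 7408 higher and 6829 lower genes to 6828 and 7498, and that between the ligands from 3878 and 4102 to 4450 and 3495. With only the 6 compared libraries these splits were 7054 and 7110, and 4487 and 4225. By library size only, BMP genes called higher went from 10 to 7. The net count of 14237 was 14149 with DESeq2 and 14164 with only the 6 compared libraries, and ran from 13867 to 13925 with 1 library left out. The count past 2-fold was 4987 with DESeq2 and ran from 5487 to 5596, and the count between the ligands ran from 7170 to 7283. The endoderm count of 8 became 5 with only the 6 compared libraries. Directions turned for 4 genes that were not called. Mki67 stood at -0.030 with library size only. With 1 library left out it ran from -0.0104 (PM replicate 2) to 0.15, Hes7 from -0.11 (CD1530 D4 replicate 2) to 0.63, Hoxc10 from -0.13 to 0.022 (PM replicate 3, and 0.012 for PM replicate 2), and Myog from -0.29 (CD1530 D4 replicate 3) to 1.86. The calls of Fgf5, Hoxd13, Mycl, Bmp2, Cer1, Dkk1 and Ptprc were lost under 22 settings in all. The causes were not tested.

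With a replicate block the counts were 14212 net, 5662 past 2-fold and 7914 between the ligands. Deviations of same-numbered PM and D4 CD1530 libraries correlated at 0.10, 0.26 and 0.04, and PM replicate 1 correlated best with D4 CD1530 replicate 3, so the numbers were not taken as pairs.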

Other observations

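Genes of glycolysis and the hypoxia response showed little net change as a group. Of 21 measured members 7 rose and 9 fell, where 43.3% of all genes rose and 39.9% fell. Their median log2 fold change was -0.04 beside 0.04 over all genes. Pfkp, a phosphofructokinase, fell from 364 ± 2.97 to 124 ± 5.31 CPM and Eno1, enolase, by 0.80 ± 0.04 on the log2 scale. Vegfa, the angiogenic factor, rose from 41.8 ± 1.68 to 191 ± 10.0 CPM (2.19 ± 0.05), and Slc2a1, the main glucose transporter, rose by 0.98 ± 0.03 and was highest at day 2.5. Pfkl (536 ± 17 and 536 ± 8.87 CPM) and Gpi1 were not called by edgeR.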
